A study of Homo sapiens with 2 samples.

Results

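KIF3C, RAB10 and GAREM2 are neighboring genes on the short arm of chromosome 2, and the TCF3::HLF-HiChIP interactions of their locus are described here. Of the 49245 interactions of the deposited list, 67 belonged to the locus. An interaction was counted when one of its bins overlapped a member gene or the 10 kb around it, or was one of the bins at chr2:25990001-25995000 and chr2:26145001-26150000. The locus and both bins were selected on the contact counts of this list, so these counts are given as a description, with no test. The HiChIP was carried out with an antibody against E2A (TCF3) in HAL-01, a leukemia cell line with t(17;19). The cells expressed Cas9GFP and carried a knockout of wild-type TCF3 (wt-TCF3 KO), so that the fusion protein was left as the target of the antibody. The methods describe the knockout line as expanded from a clone. The design held 1 condition with 2 replicates, labeled replicate 1 and replicate 2, which the authors merged before calling interactions. None of the values has a replicate error, and no difference between conditions can be tested.

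HiChIP joins DNA ends that lie close together in the nucleus and enriches for those bound by a chosen protein, so that an enhancer and a distant promoter can be caught in 1 read pair. TCF3::HLF binds DNA through the basic leucine zipper of HLF, which recognizes a short palindromic motif. KIF3C encodes a subunit of the kinesin-2 motors, which carry cargo along microtubules. RAB10 encodes a small GTPase that directs vesicles to the plasma membrane. GAREM2 encodes an adaptor related to GAREM1, which links growth factor receptors to the MAPK pathway.

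In the hg38 annotation of GENCODE release 44, KIF3C spans chr2:25926598-25982749 on the minus strand, RAB10 spans chr2:26034084-26137454 on the plus strand and GAREM2 spans chr2:26173088-26189663 on the plus strand. KIF3C and RAB10 are transcribed away from each other, with 51335 bp between their start sites. The bin at chr2:25990001-25995000 lies in this interval, 7252 bp upstream of KIF3C and 39084 bp before RAB10. It overlaps no protein-coding gene and took part in 40 of the 67 interactions. This bin is called the hub bin below. The bin at chr2:26145001-26150000 lies between RAB10 and GAREM2, 7547 bp past the end of RAB10 and 23088 bp before GAREM2.

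The sequences below show the exact matches to the HLF motif in the far bins with the 2 largest contact counts, the pair of matches in the HADHA bin within 10 kb of GAREM2, and both matches to the full palindrome TTACGTAA in the locus. The capitals mark TTATGTAA or TTACGTAA, searched on both strands, with 10 bases of hg38 on either side.
Downstream of RAB10, intergenic, minus strand, chr2:26149608-26149635: tttgcagcatTTATGTAAgcaaggttcg
RAB10, intron, plus strand, chr2:26128719-26128746: ataaaacctaTTATGTAAgaaaataaat
HADHA, intron, first site, plus strand, chr2:26196237-26196264: tccaatgccaTTATGTAAtacacagatc
HADHA, intron, second site, plus strand, chr2:26196264-26196291: caagtaaatgTTATGTAAacttatcaat
HADHA, intron, TTACGTAA site, plus strand, chr2:26201577-26201604: aatgcccaatTTACGTAAactaaatcac
SELENOI, intron, TTACGTAA site, plus strand, chr2:26366992-26367019: ctggtattatTTACGTAAttctggattc
The hub bin held 0 such matches, and so did the next bin, at chr2:25995001-26000000.

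The strongest interaction of the locus joined the hub bin with the bin downstream of RAB10, 155 kb away. Its contact count, the number of read pairs that join both bins, was 336 (exact Poisson 95% interval, 301 to 374). This interval covers counting error only, and PCR copies were not taken out when pairs were counted. The median contact count over the 456 listed interactions at the same distance was 24, so that the hub bin and the bin downstream of RAB10 had 14 times this median, which ranked 1 at that distance. Among all interactions the contact count ranked 2, behind the largest of the list, 615. The list gives it a P value of 0, as it does for 3 interactions in total. The bin downstream of RAB10 was given in no other line of the list. For merged groups of neighboring bin pairs, the list gives only some of the pairs. A group of this kind joined the KIF3C bin at 25950001 with chr2:26140001-26150000, which includes the bin downstream of RAB10. All bin pairs of that group were significant.

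This pair belonged to a merged group of neighboring bin pairs with a sumCC of 2025, the sum of their contact counts. That was the largest sumCC of the list, and the second largest was 1894. The merged group joined chr2:25990001-26000000, a stretch of 10 kb, with chr2:26065001-26170000, a stretch of 105 kb. Of its 42 bin pairs, 30 (71.4%) were significant. The stretch covered 70.1% of the length of RAB10, including its end, and stopped 3088 bp before the start of GAREM2. It left out the outermost start site of RAB10.

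The list gives 6 bin pairs of this group, with contact counts that add up to 687. After the pair with 336, the bin at chr2:26125001-26130000 in an intron of RAB10 had 140 (118 to 165) with the hub bin, 5.60 times the median at its distance and rank 1 among 566 interactions. The bin at chr2:26075001-26080000, also within RAB10, had 87 (69.7 to 107), or 3.35 times the median. The other listed pairs of the hub bin in this group had 50 (37.1 to 65.9) at 26110001 and 39 (27.7 to 53.3) at 26090001. Most bin pairs of the group are not listed, so a full profile along RAB10 cannot be read from the list. Of the listed contact counts of the hub bin in this group, the one at 155 kb was higher than those at 85, 100, 120 and 135 kb. The sixth bin pair of the group had 35 (24.4 to 48.7) and joined the bin next to the hub bin with 26160001, between RAB10 and GAREM2. Another bin of RAB10, at 26055001, had 33 (22.7 to 46.3) with the hub bin in a separate merged group.

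**Figure D1:**
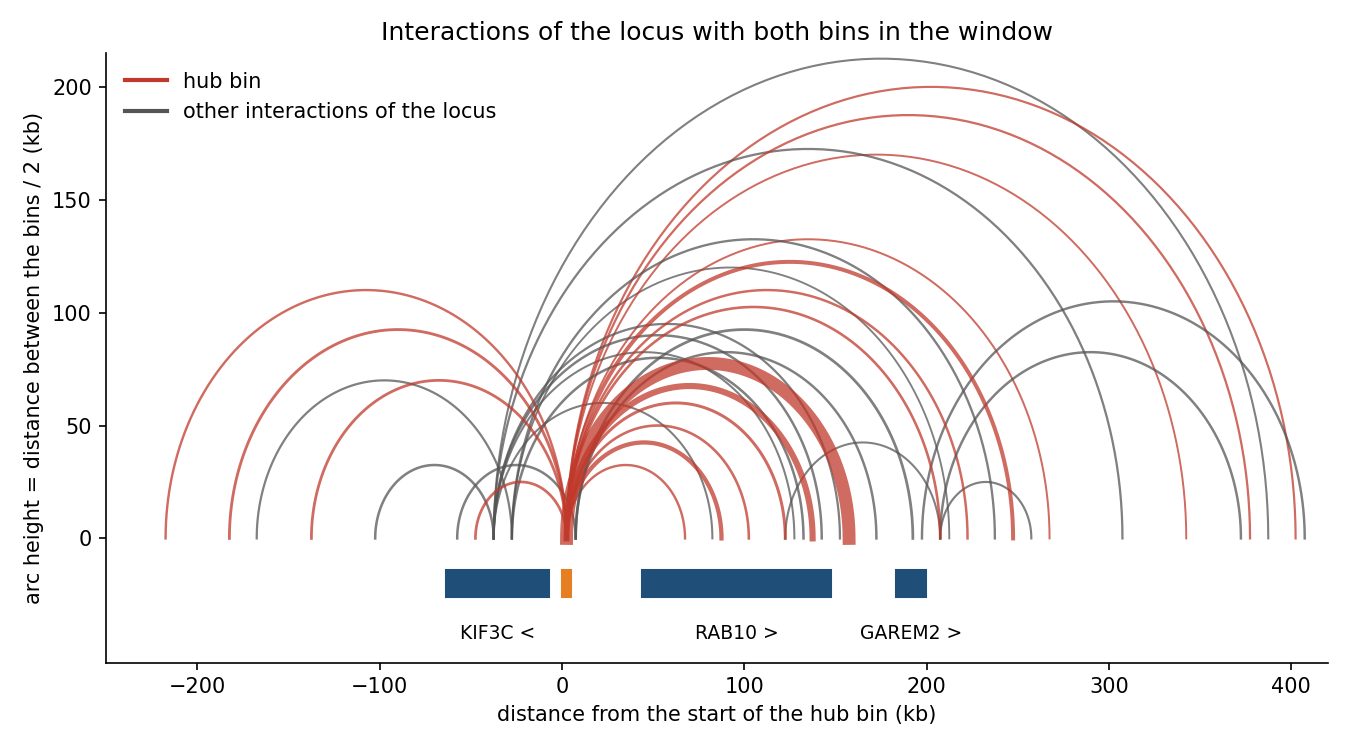
Interactions of the locus that lie entirely between 250 kb before and 420 kb after the start of the hub bin (35 of the 67). Each arc joins the centers of 2 bins, its height is the distance between them divided by 2 in kb, its width grows with the contact count, and red arcs start or end in the hub bin (orange box), and blue boxes are the member genes with < or > for their strand. The widest arc, with a contact count of 336, ends between RAB10 and GAREM2.

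From the hub bin, 14 interactions led towards lower coordinates, on the side of KIF3C and ASXL2, and 26 towards higher coordinates, on the side of RAB10. Their median distances were 425 and 432.5 kb. Contact counts added up to 379 on the side of KIF3C and 1312 on the side of RAB10, of which 976 remained without the strongest interaction. All 7 interactions of the hub bin with at least 2 times the median at their distance were on the side of RAB10. They were also the only ones of the 67 (10.4%), beside 3.20% of all listed interactions. The locus was chosen for such contacts, so nothing is read from this share. Counts above the median at the same distance were found in 41 of the 67 interactions, beside 47.6% of the list, and in 27 of the 40 interactions of the hub bin.

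Beyond RAB10, the hub bin had the next largest contact count with HADHA, which with the adjacent HADHB encodes the mitochondrial trifunctional protein of fatty acid oxidation. The bin at chr2:26235001-26240000 had 79 (62.5 to 98.5), or 3.43 times the median and rank 2 among 351 interactions at 245 kb. This bin holds the start of 1 of the 11 HADHA transcripts and ends 4672 bp from the outermost HADHA start site. The bin after it, at 26240001, holds 9 of the 11 HADHA starts and 6 of the 9 HADHB starts. It had no listed interaction with the hub bin. The hub bin also had 39 (27.7 to 53.3) with chr2:26195001-26200000, the HADHA bin with the pair of motifs shown above, and 35 (24.4 to 48.7) with 26210001, where 1 other HADHA transcript starts. These 3 contact counts with HADHA were 3.43, 1.62 and 1.46 times the medians at their distances.

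In OTOF, which encodes a calcium sensor of vesicle release, 5 far bins had contact counts from 26 to 51 with the hub bin. The largest, 51 (38.0 to 67.1) at chr2:26465001-26470000, was 2.04 times the median and ranked 1 among 168 interactions at 475 kb. This far bin holds the start of 1 of 7 OTOF transcripts. It also holds a match to a short CTCF motif on the minus strand, shown here in capitals with 9 bases on either side because this is the strongest contact of the hub bin with such a match. The motif was searched on both strands as CCA, 2 free letters, AG, 2 free letters and GGC.
OTOF, intron, chr2:26469274-26469303: cacagactgCCACCAGGTGGCggtggcgac
Farther out, the bin at 26990001 in MAPRE3, a gene of a microtubule plus-end protein, had 45 (32.8 to 60.2) at a distance of 1000 kb, 2.25 times the median and rank 1 of 41. FAM166C, CIB4 and AGBL5 also had a transcript start in a far bin of the hub bin, with contact counts of 22, 24 and 15. These were 1.05, 1.02 and 0.638 times the medians at their distances, and the interaction with AGBL5 had a q-value of 0.00863, just under the threshold of 0.01.

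On the other side, 4 far bins overlapped ASXL2, a gene of a chromatin regulator that works with the deubiquitinase BAP1. Their contact counts with the hub bin were 46 (33.7 to 61.4) at 25805001, 44 (32.0 to 59.1) at 25850001, 33 at 25770001 and 22 at 25735001. The first pair had 1.92 and 1.83 times the median at their distances, and the last lay below it. DTNB, which encodes beta-dystrobrevin, had 2 far bins with 19 and 21. DNMT3A, a DNA methyltransferase gene, had 2 with 21 and 24. A bin with the starts of 3 of the 11 transcripts of NCOA1, a nuclear receptor coactivator gene, lay 1410 kb away and had 16 (9.15 to 26.0). The farthest bin on this side, in UBXN2A, was 2010 kb away and had 34 (23.5 to 47.5), 1.62 times the median of the 17 interactions at that distance. In all, 36 of the 40 far bins overlapped a protein-coding gene, beside 57.4% of all anchor bins, and 7 held a transcript start of one, beside 12.6%. The far bins were part of the choice of the locus, so nothing is read from these shares.

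**Figure D2:**
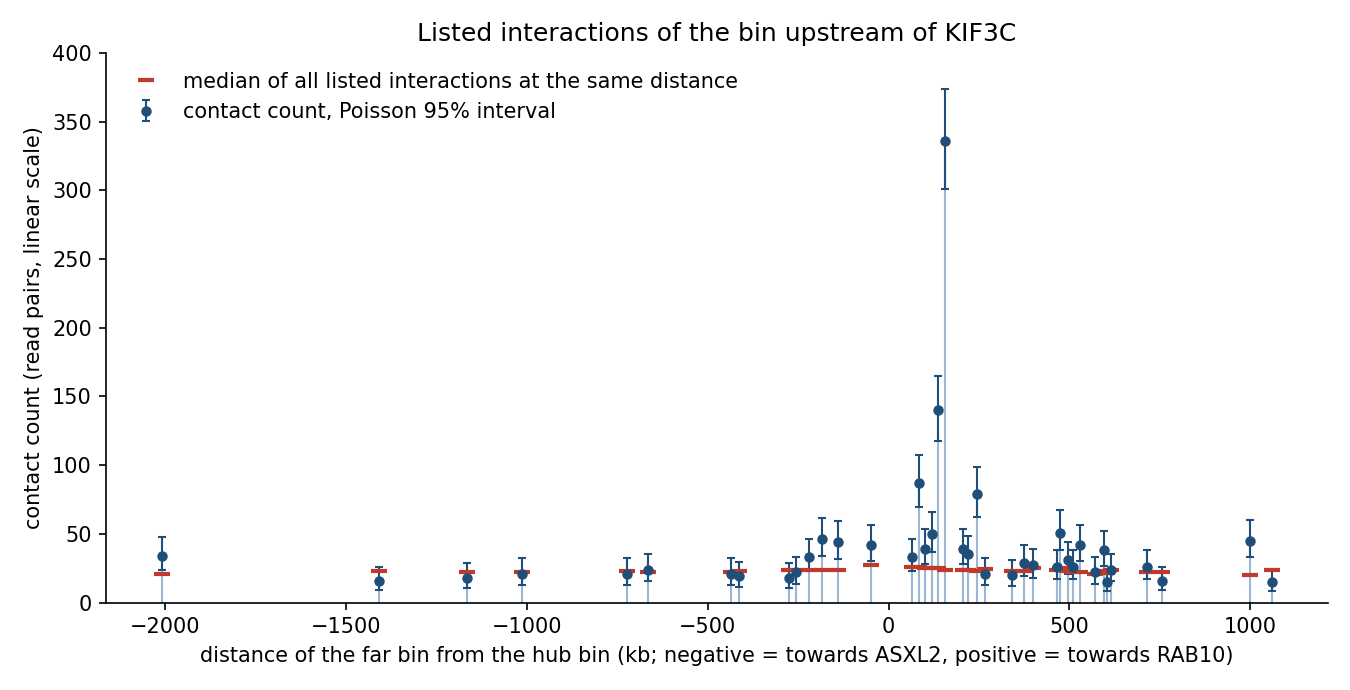
Contact counts (read pairs) of the 40 interactions of the hub bin against the distance of the far bin in kb, with exact Poisson 95% intervals. Red marks are the medians of all listed interactions at the same distance. The highest points, 336 and 140, lie 155 and 135 kb away on the side of RAB10, and on the side of ASXL2 the highest point is 46.

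Apart from the hub bin, the locus had 27 interactions, with contact counts from 17 to 43 and a median of 24, which was also the median of the whole list. None of the 27 reached 2 times the median at its distance. Single bin pairs made up 51 of the 67 interactions, so 23.9% of the locus were in merged groups of more than 1 bin pair, beside 7.69% of the list, and 6 of those 16 were the lines of the group across RAB10. Distances ran from 50 to 2135 kb with a median of 300 kb (255 kb in the list), and 7 interactions (10.4%) spanned more than 1 Mb, beside 13.7% of the list.

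KIF3C, with the 10 kb around it, had 58 interactions. Of 19970 protein-coding genes, 43 had more, and 0.220% had at least as many. Of these 58, the hub bin accounted for 40, although only its first part lies within 10 kb of KIF3C. The next bin starts past this window. It took part in 14 interactions, of which 3 are counted here through their other bin and 11, with contact counts from 15 to 41, are not.
Within KIF3C, the bin at chr2:25950001-25955000 took part in 11 interactions, with contact counts from 17 to 37. It holds the start of 1 of the 7 annotated KIF3C transcripts. Anchor bins with 10 or more interactions made up 2.10% of the list. The largest count, 37 (26.1 to 51.0), joined it with the interval between ASXL2 and KIF3C, 65 kb away. Its far bins in RAB10 or just past its end had 35 (24.4 to 48.7) at 26130001, 29 at 26140001, 23 at 26070001 and 22 at 26115001. None of its 11 listed far bins was also a listed far bin of the hub bin, but 6 lay within 10 kb of one. The merged groups of its lines at 26140001 and 26070001 ran to 26150000 and 26080000, and all their bin pairs were significant. These groups therefore took in 26145001 and 26075001, which are far bins of the hub bin. The bin at 26760001, with the starts of SLC35F6 and of the centromeric histone gene CENPA, had 18 (10.7 to 28.4), below the median of 23.5 at 810 kb. A bin with the starts of 12 of the 30 DTNB transcripts also had 18 with it, at 280 kb.
The outermost start site of KIF3C, with the starts of 5 transcripts, lies in chr2:25980001-25985000. This bin took part in 1 interaction, with a contact count of 24 (15.4 to 35.7), and its far bin lies 6354 bp from the start of DTNB. The remaining start bin of KIF3C, at 25955001, had 1 interaction, with a contact count of 23 (14.6 to 34.5) over 1640 kb. Its far bin overlaps ITSN2, a gene of an endocytic scaffold protein. All start bins of KIF3C lie closer to the hub bin than 50 kb, the smallest distance called. A contact between the hub bin and a KIF3C start could therefore not be listed.

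RAB10 had 13 interactions, and 6.89% of protein-coding genes had at least as many. Of the 13, 6 were with the hub bin and 5 with other bins of KIF3C. The strongest of the latter had 37 (26.1 to 51.0) and joined chr2:25960001-25965000 in KIF3C with 26120001 in RAB10, 1.61 times the median at 160 kb. Every one of these 11 contacts lay in the body of RAB10 or past its end. The 4 annotated transcripts of RAB10 start in 2 bins, at 26030001 and 26095001, and neither bin had a listed interaction. The first of these is 40 kb from the hub bin, closer than the 50 kb from which interactions were called, so a contact between the hub bin and this start could not be listed. The second, at 26095001, lies within the merged stretch of 105 kb across RAB10. Only 6 bin pairs of that group are listed, while 30 were significant, so the list does not show whether this bin was in a significant pair. The remaining interactions of RAB10 were 23 (14.6 to 34.5) with the HADHA bin at 26195001 and 18 (10.7 to 28.4) with BABAM2, 2135 kb away.

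GAREM2 had 9 interactions, and 11.6% of protein-coding genes had at least as many. Its contact counts ran from 18 to 43. The largest, 43 (31.1 to 57.9), joined the bin beside the hub bin with chr2:26180001-26185000 in GAREM2, where 1 of its 3 transcripts starts, at 1.79 times the median. A bin that also holds a transcript start of GAREM2, at 26185001, had 34 (23.5 to 47.5) with SELENOI, a phospholipid synthesis gene. The other 7 of GAREM2 lay in the 10 kb around it, and 6 of these used the HADHA bin at 26195001. That bin had 39 with the hub bin, 35 with SELENOI, 26 with a start bin of HADHB, 23 with RAB10, 21 with DTNB and 18 with a bin that overlaps SLC35F6 and CENPA. The outermost GAREM2 start, in chr2:26170001-26175000, had no listed interaction, also none with the hub bin 180 kb away. At that distance the smallest listed contact count was 11, and the hub bin had no listed count under 33 between 150 and 250 kb, so a contact of this pair under the threshold of the caller would not be seen.

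Equal contact counts did not have equal P values, which the caller sets from distance and coverage. A count of 35 had a P value of 1.51e-11 for the hub bin with HADHA at 220 kb. For the KIF3C bin at 25950001 with RAB10 at 180 kb, the same count had 3.50e-16. The HADHA bin at 26195001 had 5.81e-17 with SELENOI at 165 kb, again with a count of 35.

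By its number of interactions, the hub bin shared rank 6 with other bins among the 53535 anchor bins of the list, and the largest number was 65. It had the most on chromosome 2, where the second had 34. Against the other 32 of the 33 anchor bins with 30 or more interactions, its largest contact count ranked 1, with 336 against a range of 43 to 260. Its median contact count of 28 ranked 19 in this set, in which the others ranged from 24 to 39.5. The strongest interaction carried 19.9% of the summed contact counts of the listed interactions of the hub bin. For the other bins of the set this share ranged from 4.15 to 14.1%. Pairs of merged groups that are not listed are left out of these sums. The rule used the contact counts, so the values of this paragraph are given as a description.

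**Figure D3:**
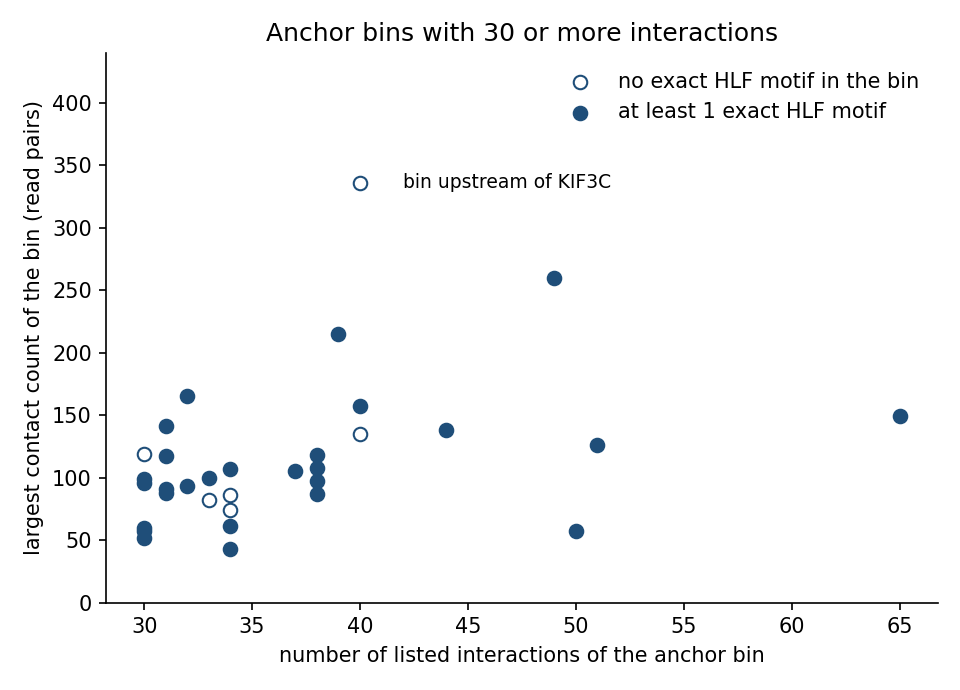
Largest contact count (read pairs) against the number of listed interactions for the 33 anchor bins with 30 or more interactions. Filled points hold at least 1 exact HLF motif and open points hold none. The bin upstream of KIF3C is an open point with 40 interactions and a largest contact count of 336.

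The HLF motif was not used by the rule. Of the 73 anchor bins of the locus, 20 (27.4%; Wilson 95% interval, 18.5 to 38.6%) held an exact match, beside 31.5% of all anchor bins and 32.1% of all 5-kb bins of chromosome 2. The hub bin, with no match, was 1 of 6 without a motif among the 33 bins with 30 or more interactions. Of the 1126 bins with 10 or more, 375 (33.3%) had none. With 1 mismatch allowed, a search added after the values were seen, the hub bin held 6 matches, the bins with 10 or more interactions had a median of 8, and 34.3% of them had 6 or fewer. No match says only that these letters are absent from the reference in this window.
Of the 40 far bins of the hub bin, 14 held a match, beside 31.5% of all anchor bins. The bins with a match included those with the 2 largest contact counts, at 26145001 and 26125001, but not the third, at 26075001, nor the HADHA bin at 26235001. A link between the motif and the contact count was not tested. Counted by interaction, 24 of 67 (35.8%) had a motif in at least 1 bin, beside 66.8% of the list. The 40 interactions of the hub bin could have one only in the far bin, and 14 did. Of the other 27, 10 had one. A bin counts once per interaction here, and 66.7% of the bins with 10 or more interactions held a motif. A motif in both bins was found in 1 of the 67, beside 16.2% of the list. The interactions share the hub bin, so they are not independent of each other.
The short CTCF motif occurred in 15 of the 73 anchor bins (20.5%; 12.9 to 31.2%), beside 13.6% of all anchor bins and 11.4% of all 5-kb bins of chromosome 2. Neither the hub bin nor the bin downstream of RAB10 held one. The sequences of the locus were not near-identical copies: the bins of an interaction shared at most 56 stretches of 31 bases, and those of the strongest interaction shared 19. The bins span 4970 such positions each.

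Genes related to the members by function were counted in the same way, from 4 lists. Of 24 related genes, 20 (83.3%) had at least 1 interaction in the gene or 10 kb around it, beside 64.5% of all protein-coding genes. The kinesin-2 list, with KIF3C, had an interaction in 5 of 5 genes, with numbers from 1 to 58 and a median of 2. RAB10 and its closest Rab GTPases had one in 5 of 7, with 0 to 13. Of the 9 genes that act on RAB10 or on Rab proteins in general, 7 had one, with 0 to 15. The GAREM and GRB2-associated adaptor genes, with GAREM2, had one in 6 of 6, with 2 to 51. The members, chosen on these data, are included in the counts of their lists but not in the 24 related genes. The largest numbers among related genes were 51 for GAREM1 and 19 for GAB2, an adaptor in receptor signaling. More interactions than RAB10 were listed for 5 related genes, and more than GAREM2 for 7. The genes differ in length, with 346006 bp for GAREM1 and 16576 bp for GAREM2, so the numbers are not per length.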

How the data were processed

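TCF3::HLF-HiChIP was measured in TCF3-KO HAL-01 cells with 2 replicates. Per the methods, the authors trimmed reads with Trim Galore 0.6.6, merged the replicates, aligned them to hg38 with BWA-MEM, extracted pairs with pairtools without dedup, called MACS2 peaks and ran FitHiChIP on 5-kb bins (50 kb to 3 Mb, q-value under 0.01), merging nearby contacts. Its version is not given in the sources used here. The deposited contact counts and sumCC are not normalized, and listed contact counts add up to 1268490. The P value and q-value deposited by the authors come from the FitHiChIP background, and the deposited fraction gives the significant share of a merged group.

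Members, gene lists and bins were chosen with earlier results of these data known. Positions are 1-based in hg38, and 0 bins lay past a chromosome end. Genes came from GENCODE release 44. Contact counts have exact Poisson and shares Wilson 95% intervals. Medians at the same distance cover all listed interactions. Motifs were exact matches on both strands. The bins of an interaction were compared by shared 31-mers on either strand. Named genes were the members, genes with a start in or nearest to the far bins of the 10 largest contact counts, genes with a start in any far bin, and genes overlapping other bins. Of the related genes, those with the most interactions were named, at most 4. Scripts were tested on simulated data. Alternatives were other q-values, count minimums, distances, windows, merged ranges and motifs. Calculations used scipy 1.17.1, pandas 2.3.3 and numpy 2.4.6 under Python 3.11.15, and figures used matplotlib 3.10.9.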

Additional observations from a re-analysis of the deposited data

How the results depend on the processing

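The list holds both replicates merged, so no value without a replicate could be computed. No paired analysis was possible because the list gives a single merged value for both replicates of 1 condition. Of 64 comparisons with an alternative, 52 kept their value (counts within 1.5 times, ratios and shares within their interval) and 12 did not. Some of the 52 could not have changed, such as the counts of the hub bin and of the bin at 26145001 with other gene windows. With merged bin ranges, the bin at 26145001 had 7 interactions in place of 1, and GAREM2 had 14 in place of 9. With no window around the genes, KIF3C had 19 in place of 58 and GAREM2 had 2. Without the hub bin, which was tried after the values were seen, the locus had 27 interactions, KIF3C 18 and RAB10 7. The strongest contact count was 12.2 times the median with a q-value under 1e-05, 12.4 times with contact counts of at least 20 and 12 times on chromosome 2, in place of 14, and its sumCC was 81 times the median sumCC. The strongest contact count ranked 1 under each alternative. Settings that only remove other interactions could not change this rank, nor could sumCC, since it was the largest of the list. Among the 3430 interactions within 10% of its distance it also ranked 1, but the pair was selected on its contact count. With TTACGTAA alone, 2.74% of the anchor bins of the locus held a motif. With each merged group counted once, also chosen after seeing the data, the locus had 62 interactions and the hub bin 36. Contact counts under the threshold of the caller were not listed, and no limit can be set for them here beyond the smallest listed counts.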
